A study of Rattus norvegicus with 49 samples.

Results

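The 81 genes described here encode the translation initiation factors of the rat, with the kinases and binding proteins that control them, and the aminoacyl-tRNA synthetases. They were chosen by symbol alone (Eif1 to Eif6, and the symbols of the synthetases) from the 14217 genes that the arrays measured with a probe set of a single gene symbol. Of the 81, 49 were factors or their regulators, 19 were cytosolic synthetases and 13 were mitochondrial synthetases, taken as the symbols that end in 2. The split rests on the symbol, so a gene counted as cytosolic may also supply a mitochondrial enzyme. Each array held liver RNA of 1 male Sprague-Dawley rat, about 8 to 10 weeks old at the start. Group 1 had powdered feed ad libitum and, by its labels, was not fasted before necropsy. Group 2 had the same feed ad libitum but was fasted overnight, and it was the control against which every other diet was set. The ration was cut by 15% in group 3, by 30% in group 4 and by 60% in group 5, and these rats also went without food overnight. The general design text has every animal fasted, whereas the labels and the study's methods leave group 1 unfasted, and group 1 is treated here as fed. Each group had 5 rats after 4 days and 5 after 14 days, except that group 1 had 4 at day 14, which gave 49 arrays.

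Initiation begins when eIF2, loaded with GTP and the initiator tRNA, joins the small ribosomal subunit together with eIF1, eIF1A and the large complex eIF3. The eIF4 proteins bind the cap of the mRNA and unwind its leader, the 4E-BPs block that step by holding eIF4E, and eIF2B recharges eIF2 unless an eIF2 kinase has phosphorylated it. The synthetases load each amino acid onto its tRNA, with a cytosolic set and a mitochondrial set encoded by nuclear genes. In liver this machinery is known to follow feeding, because amino acids and insulin act on it through mTOR and through the kinase GCN2, which senses uncharged tRNA.

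Values are log2 of the deposited intensities, a scale on which 1 unit is a 2-fold difference, and they are read between rats for 1 gene and not between genes, since each probe set has its own brightness. The median log2 intensity lay between 6.34 and 6.43 on all 49 arrays, and arrays of the same group and day correlated at 0.991 to 0.994 (group medians). Hepatocyte markers were bright, from 12.44 for Hnf4a to 14.99 for Alb as means over all arrays. Their summed level was 17.36 to 17.47 in every rat. Since the samples were bulk liver, fewer cells of a type and less RNA per cell cannot be told apart. Differences were tested with limma for each comparison over all 14217 genes, and a gene is called higher or lower at a Benjamini-Hochberg adjusted p under 0.1. The p-values measure the spread between rats, and the number of arrays limits the precision. Of the 81 genes, 45 were called in at least 1 of the 8 comparisons with group 2 and 36 in none. These comparisons share the rats of group 2 within a day.

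**Figure D1:**
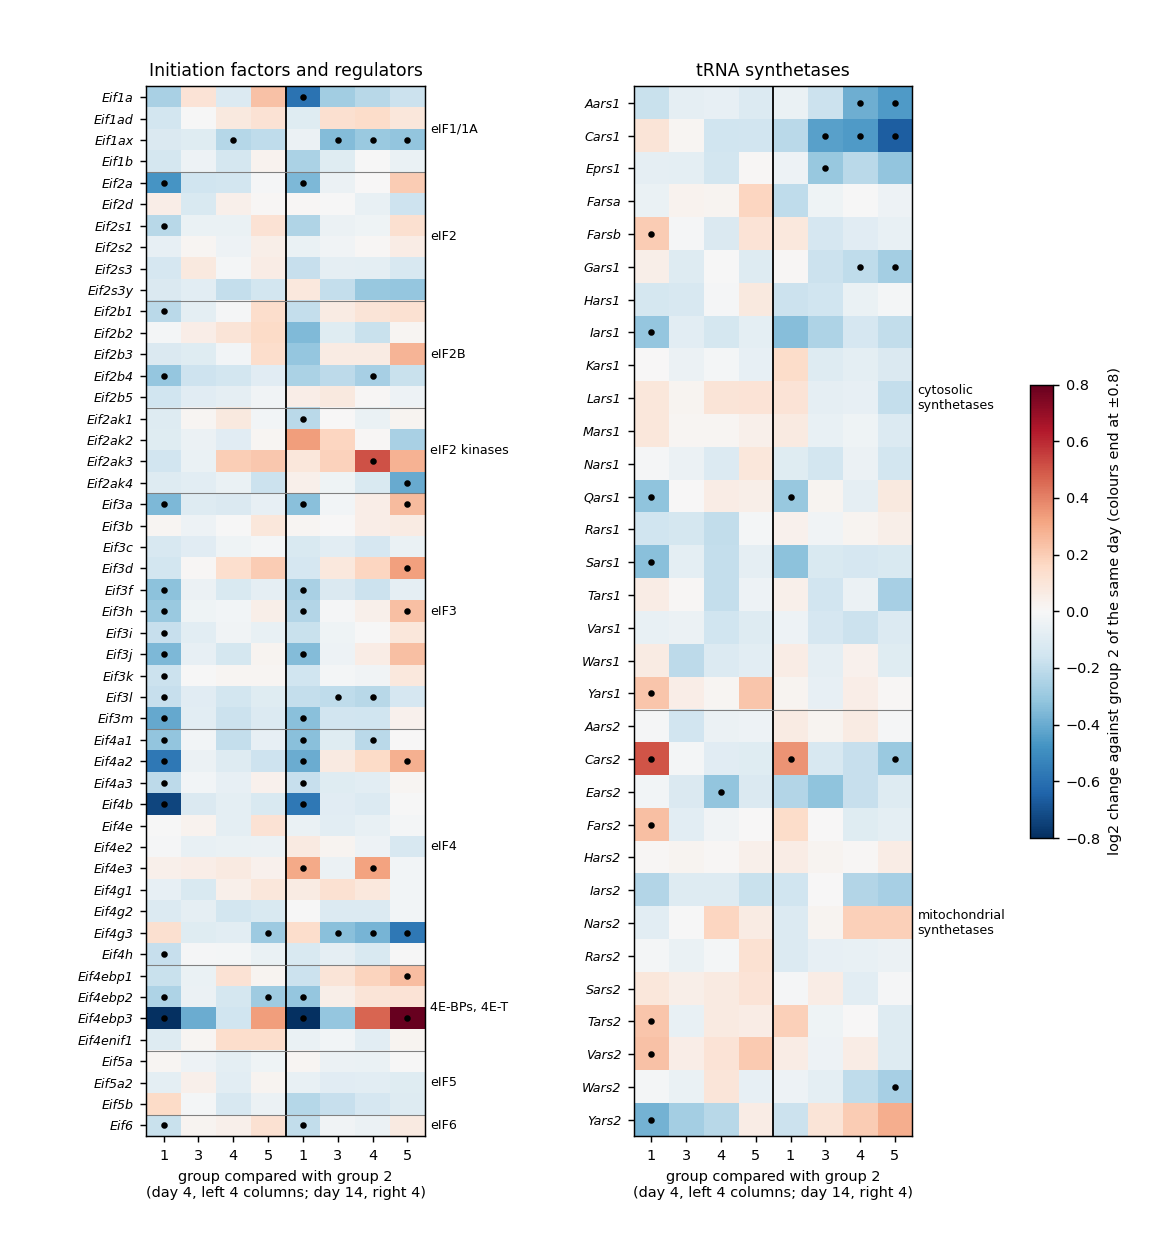
Log2 change of each of the 81 genes against group 2 of the same day, in groups 1, 3, 4 and 5 at day 4 (left 4 columns of each panel) and day 14 (right 4), with black dots where the adjusted p was under 0.1. The column of dots is longest for group 1, with 30 genes at day 4 and 18 at day 14, and colours end at 0.8 on either side, which the 4E-BP gene Eif4ebp3 passed at -1.34, -1.64 and 1.02.

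The fed rats of group 1 had lower initiation factor mRNA in the liver than the fasted rats of group 2. At day 4, 24 of the 81 genes were lower, or 29.6% against 11.5% of all genes, and 6 were higher, or 7.41% against 9.76% of all genes. At day 14, 16 were lower, or 19.8% against 5.92%, and 2 were higher, or 2.47% against 7.26%. All fed rats lay below all fasted rats for 18 of the 81 genes at day 4 and 19 at day 14 (7.29% and 5.72% of all genes), and above them for 2 and 1 (5.7% and 6.27%). Most of the lower genes were factors: 20 of 49 were lower and none higher at day 4 (median log2 change -0.149, against 0.003 over all genes), and 15 were lower and 1 higher at day 14 (median -0.177, against 0.013). The cytosolic and mitochondrial synthetases had medians of -0.009 each at day 4 and of -0.041 and -0.01 at day 14. The lowest of the 10 means, over both days, lay in group 1 for 34 of the 49 factors. The share of all genes with their lowest mean in group 1 was not counted.

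The largest gap was in Eif4ebp3, which encodes 4E-BP3, a repressor that binds the cap-binding protein eIF4E. At day 4 its log2 intensity was 9.38, 9.94, 10.08, 10.38 and 10.78 in the fed rats and 10.74, 11.10, 11.29, 11.33 and 12.76 in the fasted rats. The highest fed rat lay just above the lowest fasted rat, and 1 fasted rat stood far above the others. The difference was -1.34 ± 0.35 (log2 change ± SE, limma, adjusted p = 0.0239), or 2.52-fold lower. At day 14 the values were 9.70, 10.05, 10.25 and 10.35 in the 4 fed rats and 11.49, 11.56, 11.63, 11.77 and 12.18 in the fasted rats. Here the groups were more than a full log2 unit apart, with a difference of -1.64 ± 0.16 (limma, adjusted p = 0.000186), or 3.11-fold lower. Of the other repressors, Eif4ebp2 was lower, with log2 changes of -0.24 and -0.31 at days 4 and 14 (limma, adjusted p = 0.0397 and 0.0521). Eif4ebp1 did not pass the test (-0.18 and -0.17, adjusted p = 0.134 and 0.215), nor did the transporter of eIF4E, Eif4enif1 (-0.10 and -0.05).

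Among the eIF4 proteins, 5 of 11 were lower at day 4 and 4 were lower and 1 higher at day 14. Eif4b encodes an RNA-binding partner that stimulates the helicase eIF4A. Its log2 intensity at day 4 was 9.80, 9.89, 9.90, 9.93 and 10.14 in the fed rats against 10.49, 10.65, 10.68, 10.74 and 10.76 in the fasted rats, with no overlap. At day 14 it was 9.82, 10.11, 10.17 and 10.23 against 10.44, 10.59, 10.73, 10.73 and 10.79, again without overlap. The log2 changes were -0.73 ± 0.07, adjusted p = 7.69e-05 at day 4, or 1.66-fold lower, and -0.57 ± 0.10, adjusted p = 0.00619 at day 14 (limma). The helicase gene Eif4a2 was at 11.89, 11.99, 11.995, 12.03 and 12.08 in the fed rats and 12.34, 12.55, 12.57, 12.67 and 12.70 in the fasted rats at day 4. Its values at day 14 were 11.89, 11.95, 12.02 and 12.03 and 12.22, 12.31, 12.38, 12.45 and 12.51. Every fed rat lay below every fasted rat on both days, and the log2 changes were -0.57 ± 0.07, adjusted p = 0.000414 and -0.40 ± 0.07, adjusted p = 0.00772 (limma). The closely related helicase gene Eif4a1 was lower as well (-0.31 and -0.33), with the fed rats at 11.84 to 12.08 against 12.19 to 12.36 at day 4 and 11.87 to 12.02 against 12.16 to 12.34 at day 14. Eif4a3, which belongs to the exon junction complex, was lower by less on both days (-0.21 and -0.19), and so was Eif4h at day 4 (-0.18). The single eIF4 gene called higher was Eif4e3, a cap-binding relative of eIF4E, at day 14 (0.30, limma, adjusted p = 0.0525).

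The eIF3 complex keeps the small subunit free for the factors and bridges it to the mRNA, and 8 of its 11 measured subunit genes were lower at day 4 and 5 at day 14, with none higher. Eif3a encodes the scaffold of the complex. Its log2 intensity at day 4 was 10.61, 10.70, 10.70, 10.80 and 10.88 in the fed rats and 10.95, 11.10, 11.14, 11.14 and 11.15 in the fasted rats, a gap without overlap. At day 14 the fed rats had 10.49, 10.67, 10.68 and 10.76 and the fasted rats 10.83, 10.97, 10.98, 10.99 and 11.15, also without overlap. The log2 changes were -0.36 ± 0.07, adjusted p = 0.00391 and -0.33 ± 0.08, adjusted p = 0.0302 (limma). Its other probe set was at -0.16 (adjusted p = 0.579) at day 4, which did not pass the test, and at -0.62 (adjusted p = 0.0851) at day 14. Eif3m, a subunit of the structural core, differed most at day 4 (-0.41 ± 0.06, adjusted p = 0.000962, limma) and was -0.34 at day 14. Eif3j, a loosely bound subunit, was -0.36 and -0.35, and Eif3f was -0.33 and -0.26. For Eif3h the fed rats were at 10.83, 10.85, 10.89, 10.96 and 10.996 and the fasted rats at 11.13, 11.21, 11.22, 11.23 and 11.23 at day 4, without overlap, a log2 change of -0.30 (limma, adjusted p = 0.00327). It was also called at day 14 (-0.24, adjusted p = 0.0513). Its other probe set was dim, with a mean of 5.10 over all arrays, below the 20th percentile of all genes (5.31), and was at -0.14 (adjusted p = 0.453) and 0.0043 on the 2 days. Eif3l (-0.18), Eif3i (-0.18) and Eif3k (-0.17) were lower at day 4 and did not pass the test at day 14, and the other probe sets of Eif3l and Eif3k did not pass at day 4 (-0.14 and -0.10, adjusted p = 0.116 and 0.441).

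Fewer genes of the earlier steps were called. Eif2a, which encodes an initiator tRNA carrier separate from eIF2, was lower on both days (-0.47 ± 0.09, adjusted p = 0.00519 and -0.36 ± 0.11, adjusted p = 0.067, limma). The alpha subunit gene Eif2s1, the target of the eIF2 kinases, was lower at day 4 (-0.22, adjusted p = 0.073), while Eif2s3 (-0.13) and Eif2s3y (-0.12) did not pass. Of the exchange factor eIF2B, 2 of 5 subunit genes were lower at day 4, Eif2b4 (-0.31) and Eif2b1 (-0.22). At day 14 none passed, and Eif2b2 and Eif2b3 were at -0.36 and -0.31 (limma, adjusted p = 0.101 and 0.113). Eif1a, a copy of the scanning factor eIF1A, was lower at day 14 (-0.59 ± 0.14, adjusted p = 0.0268, limma) and at -0.26 (adjusted p = 0.266) at day 4. Eif6, which holds the large ribosomal subunit free, was slightly lower on both days (-0.18 and -0.20, adjusted p = 0.0603 and 0.0997). Of Eif5a, Eif5a2 and Eif5b none was called, with Eif5b, the GTPase of subunit joining, at 0.16 and -0.23, Eif5a at 0.02 and 0.01, and Eif5a2 at -0.08 and -0.06. Of the eIF2 kinases, only Eif2ak1, activated by heme shortage, was called, and only at day 14 (-0.22, adjusted p = 0.0737), where its other probe set was at 0.03. The interferon-induced kinase Eif2ak2 was at 0.34 (limma, adjusted p = 0.102) at day 14.

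**Figure D2:**
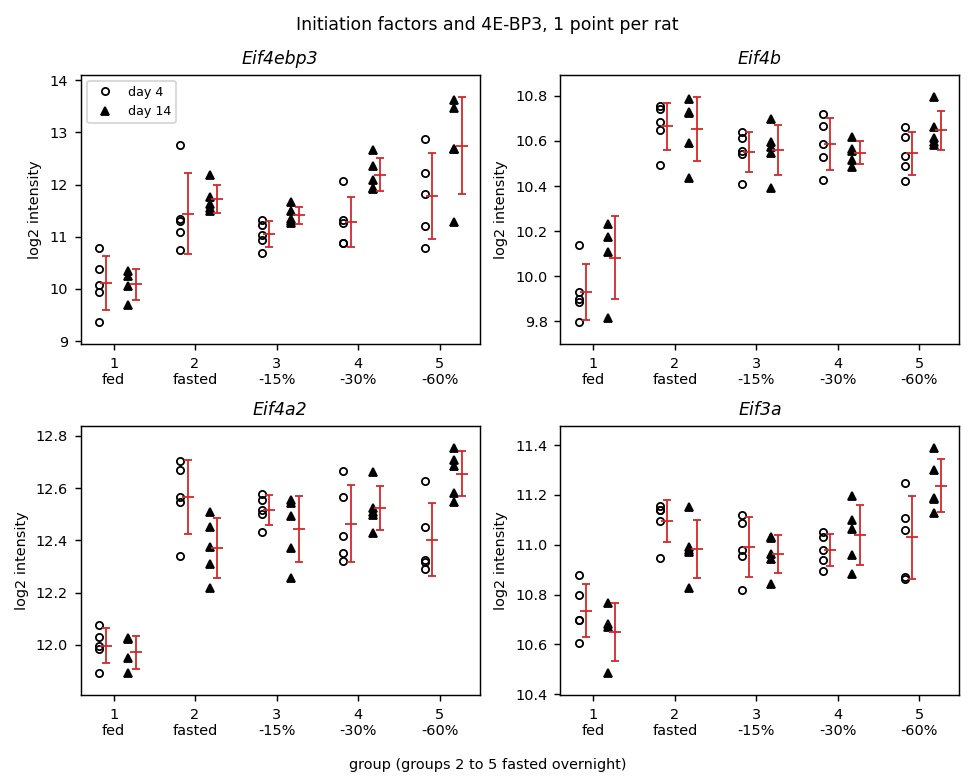
Log2 intensity of Eif4ebp3, Eif4b, Eif4a2 and Eif3a in each rat (circles, day 4; triangles, day 14) of the 5 diet groups, with the mean and SD in red. For Eif4b, Eif4a2 and Eif3a all rats of group 1 lie below all rats of group 2 on both days, and in group 5 at day 14 the points of Eif4ebp3 spread from 11.28 to 13.62.

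Synthetase genes moved both ways between the fed and fasted rats. At day 4, Sars1 (-0.33), Qars1 (-0.32) and Iars1 (-0.31), the cytosolic enzymes for serine, glutamine and isoleucine, were lower (limma, adjusted p = 0.00145, 0.00454 and 0.0242). The other probe set of Iars1, with a mean of 5.47, was at 0.10. Farsb (0.20) and Yars1 (0.22) were higher, and the other probe set of Farsb, with a mean of 5.35, was at 0.08 (adjusted p = 0.457) and did not pass the test. At day 14 only Qars1 was called among the cytosolic genes (-0.30 ± 0.07, adjusted p = 0.0184, limma), and Sars1 had the same log2 change as at day 4 without passing the test (-0.33, adjusted p = 0.107). Among the mitochondrial genes 4 were higher at day 4 and 1 lower. Cars2, the mitochondrial cysteine enzyme, was at 7.98, 8.05, 8.06, 8.06 and 8.13 in the fed rats and 7.37, 7.47, 7.59, 7.66 and 7.67 in the fasted rats at day 4. Every fed rat was above every fasted rat, and the change was 0.51 ± 0.07, adjusted p = 0.000567 (limma), or 1.42-fold higher. At day 14 its values were 7.86, 8.01, 8.07 and 8.17 against 7.42, 7.55, 7.63, 7.75 and 7.99, which overlapped (0.36 ± 0.11, adjusted p = 0.0762, limma), and the call was lost without any of 7 of the 9 rats (adjusted p of up to 0.199). Fars2 (0.24), Vars2 (0.23) and Tars2 (0.22) were the others called higher, although the other probe set of Tars2 did not pass (0.13, adjusted p = 0.294), and Yars2 (-0.38, adjusted p = 0.0239) was lower. Cytosolic and mitochondrial genes for the same amino acid formed 14 pairs. These covered 13 amino acids, since Farsa and Farsb were each paired with Fars2. Of these pairs, that for tyrosine was called in opposite directions at day 4.

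Leaving out each rat in turn kept 23 of the 30 calls at day 4 and 8 of the 18 at day 14, where group 1 had 4 rats. Stellate and fibroblast markers also differed between these groups: 4 of 12 were higher on each day and 1 was lower at day 14, their summed level was 12.24 to 12.83 against 11.69 to 12.34 at day 4 and 12.57 to 12.76 against 11.86 to 12.55 at day 14, and the defining marker Lum was below the 20th percentile of all genes. The summed level of the 7 endothelial markers was 12.41 to 12.50 in group 1 against 12.51 to 12.65 in group 2 at day 14, without overlap, although none of the 7 was called then. Their part in the result was not tested.

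**Figure D3:**
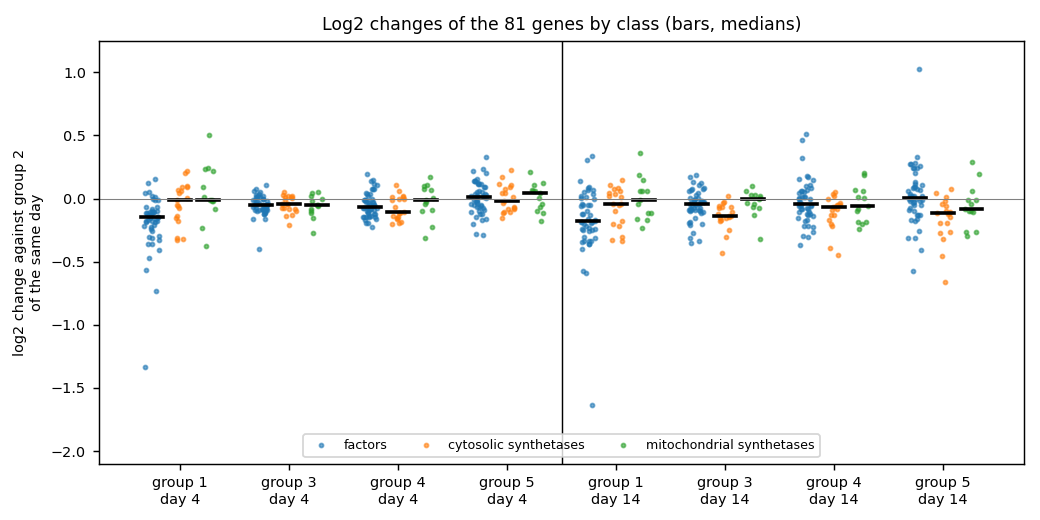
Log2 change of every gene against group 2 of the same day, split into factors, cytosolic synthetases and mitochondrial synthetases, with black bars at the medians. The median of the factors was -0.149 and -0.177 in group 1 and 0.002 in group 5 at day 14, when that of the cytosolic synthetases was -0.116.

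Restriction for 4 days on top of the overnight fast changed few of these genes. In group 3 none of the 81 was called with limma, against 0.253% of all genes. In that comparison 2 members had an unadjusted p under 0.05, and LNN-MV, the empirical Bayes model that the study's methods name, also called 0. The share of all genes under that unadjusted p was not counted. In group 4, 2 were lower (2.47%, against 2.38% of all genes) and none higher (3.05%). They were Ears2, the mitochondrial glutamate enzyme (-0.31 ± 0.06, adjusted p = 0.0234, limma), and Eif1ax, an eIF1A gene (-0.23 ± 0.06, adjusted p = 0.0686, limma). Eif1ax was at 9.05, 9.15, 9.17, 9.17 and 9.29 in group 4 and 9.33, 9.34, 9.36, 9.47 and 9.48 in group 2, without overlap. In group 5, 2 were lower (2.47%, against 3.58% of all genes) and none higher (3.56% of all genes). Eif4g3, a paralogue of the scaffold eIF4G that ties the cap to the ribosome, was at 8.34, 8.52, 8.59, 8.64 and 8.66 against 8.69, 8.82, 8.84, 8.90 and 8.95 in group 2. All 5 rats of group 5 lay below those of group 2 (-0.29 ± 0.07, adjusted p = 0.052, limma). The other probe set of Eif4g3 was dim, with a mean of 4.61 over all arrays, below the 20th percentile of all genes, and was at 0.0991. Eif4ebp2 was at 10.41, 10.43, 10.52, 10.53 and 10.73 against 10.62, 10.77, 10.78, 10.91 and 10.99, which overlapped (-0.28 ± 0.08, adjusted p = 0.0855, limma). At day 4 Eif4ebp3 was at -0.40, -0.16 and 0.33 in groups 3, 4 and 5, none of them past the test (adjusted p = 0.716, 0.877 and 0.751), and its values in group 5 ran from 10.79 to 12.86. Neither call in group 5 held when each rat was left out in turn, and that of Eif1ax in group 4 was lost without any of 7 of the 10 rats (adjusted p of up to 0.162), whereas the call of Ears2 held.

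After 14 days more genes were called as the food was cut further, both among the 81 and over all genes. In group 3, 5 were lower (6.17%, against 3.14% of all genes) and none higher (3.4% of all genes). In group 4, 8 were lower (9.88%, against 6.24%) and 2 higher (2.47%, against 6.52%). In group 5, 8 were lower (9.88%, against 10.9%) and 6 higher (7.41%, against 8.88%), so that neither share in group 5 exceeded that of all genes. The cytosolic synthetases had 2, 3 and 3 genes lower in groups 3, 4 and 5 and none higher, with medians of -0.135, -0.07 and -0.116. In group 3, 18 of the 19 were below 0, and in group 5, 16, without a count of all genes below 0 to set beside them. The factors had a median of 0.002 in group 5, with 6 higher and 3 lower. Going from group 2 through groups 3 and 4 to group 5, the mean fell at each step for 10 of the 81 genes and climbed at each step for 9, or 12.3% and 11.1%, against 10.5% and 9.94% of all genes. The 10 were Aars1, Cars1, Gars1, Cars2, Wars2, Eif4g3, Eif2ak4, Eif2d, Eif2s3 and Eif2s3y.

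Cars1, the cytosolic enzyme for cysteine, was called in all 3 restricted groups at day 14. Its log2 intensity was 8.67, 8.70, 8.79, 9.15 and 9.18 in group 2. The restricted rats had 8.33, 8.35, 8.38, 8.62 and 8.65 in group 3, 8.32, 8.40, 8.41, 8.50 and 8.61 in group 4 and 8.02, 8.16, 8.24, 8.35 and 8.41 in group 5. Every restricted rat was below every rat of group 2, although in group 3 by little. The log2 changes were -0.43 ± 0.12, adjusted p = 0.0607 in group 3, -0.45 ± 0.11, adjusted p = 0.0261 in group 4 and -0.66 ± 0.12, adjusted p = 0.00303 in group 5 (limma), the last being 1.58-fold lower. Its 3 other probe sets were also below group 2 in group 5, at -0.56, -0.75 and -0.22, of which the last did not pass the test (adjusted p = 0.119). The group 3 call was lost when any of 5 of the 10 rats was left out, with an adjusted p of up to 0.144.

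Aars1, the alanine enzyme, was at 11.60, 11.66, 11.70, 11.71 and 11.98 in group 2 and 11.47, 11.47, 11.60, 11.62 and 11.62 in group 3. The values were 11.19, 11.25, 11.32, 11.42 and 11.51 in group 4 and 11.21, 11.27, 11.28, 11.30 and 11.35 in group 5. Groups 4 and 5 lay entirely below group 2, whereas group 3 overlapped with it. The changes were -0.17 (adjusted p = 0.281) in group 3, -0.39 ± 0.09, adjusted p = 0.016 in group 4 and -0.45 ± 0.08, adjusted p = 0.00236 in group 5 (limma), or 1.37-fold lower in group 5. Gars1, for glycine, was lower in groups 4 and 5 (-0.20 and -0.27, adjusted p = 0.0931 and 0.0199), but its other probe set did not pass, at -0.16 in both (adjusted p = 0.362 and 0.33). Eprs1, the joint enzyme for glutamate and proline, was called in group 3 alone (-0.30, adjusted p = 0.0869) and was at -0.32 (adjusted p = 0.106) in group 5. Of its 3 other probe sets, 1 passed in group 3 (-0.54, adjusted p = 0.0391) and the others were at -0.41 and -0.13 (adjusted p = 0.1002 and 0.681). Of the mitochondrial enzymes, Cars2 (-0.30) and Wars2 (-0.26), for cysteine and tryptophan, were lower in group 5 (limma, adjusted p = 0.089 and 0.0545). Cars2 was at 7.27, 7.30, 7.32, 7.33 and 7.61 in group 5, where 1 rat stood above the rest, against 7.42, 7.55, 7.63, 7.75 and 7.99 in group 2, and the groups overlapped. This call was lost without any of 7 of the 10 rats (adjusted p of up to 0.175). The other probe set of Wars2 was at -0.13 (adjusted p = 0.609). The mitochondrial alanine gene Aars2 was at -0.01. Iars2 was at -0.26 and Yars2 at 0.29 (adjusted p = 0.148 and 0.17).

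Some promoters of these enzymes share a short motif. Several synthetase genes are known targets of ATF4, the transcription factor made when eIF2 is phosphorylated, which binds C/EBP-ATF response elements. The core TGATGNAA (N is any base) was searched on both strands from 250 bases before to 50 bases after each RefSeq transcription start of rat build GRCr8, where 75 of the 81 genes had an entry. It was found for 7 of 17 cytosolic synthetases (41.2%): Aars1, Cars1, Iars1, Mars1, Nars1, Tars1 and Yars1. No mitochondrial synthetase of 13 held it, nor did any of the 45 factors apart from Eif2s2 (2.22%), against 2.2% of the 11700 array genes with an entry and 3.82% of all 27457 promoters. Such a match is a description of the letters and not a binding site. The stretches around the matches that lie upstream of the start are shown for 4 synthetases and for Eif2s2, the single factor, to let the shared core be seen. They are written 5′ to 3′ on the strand of the gene, with the core in capitals (TTGCATCA is TGATGCAA read on the other strand).
Aars1, chr19:55908344-55908403, plus strand: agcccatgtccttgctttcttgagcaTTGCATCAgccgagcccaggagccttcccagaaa
Tars1, chr2:62114803-62114855, minus strand: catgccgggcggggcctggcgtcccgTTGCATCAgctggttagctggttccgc
Iars1, chr17:15193653-15193702, minus strand: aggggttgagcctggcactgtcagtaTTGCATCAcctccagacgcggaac
Mars1, chr7:65023754-65023796, minus strand: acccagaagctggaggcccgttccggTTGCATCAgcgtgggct
Eif2s2, chr3:163855573-163855632, minus strand: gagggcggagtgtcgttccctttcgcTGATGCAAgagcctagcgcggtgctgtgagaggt
All 5 stretches hold the same 8 bases, which in Tars1, Iars1, Mars1 and Eif2s2 begin 27, 24, 17 and 36 bases before the start. In Aars1 they lie farther upstream, and a second match to the core in this promoter begins 10 bases after the start. Cars1 and Yars1 have their only match after the start. The ETS motif CCGGAAG, searched in the same way on both strands, was found for 40.0% of the factors, 52.9% of the cytosolic and 38.5% of the mitochondrial synthetases, against 15.1% of the array genes. The E-box CACGTG was found for 20%, 29.4% and 7.69%, against 8.94%. Overlap between the motifs was not examined.

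Among the factors, Eif4g3 had the largest called decrease with restriction. Its log2 intensity was 8.90, 9.02, 9.03, 9.03 and 9.07 in group 2 and 8.50, 8.60, 8.68, 8.75 and 8.83 in group 3. It was 8.52, 8.54, 8.60, 8.69 and 8.83 in group 4 and 8.16, 8.38, 8.54, 8.55 and 8.55 in group 5. No restricted rat overlapped with group 2, and the changes were -0.34 ± 0.07, adjusted p = 0.0185, -0.37 ± 0.07, adjusted p = 0.00756 and -0.57 ± 0.08, adjusted p = 0.000961 (limma), the last being 1.49-fold lower. This rests on 1 probe set, since the other was the dim one, at -0.08, -0.02 and -0.07 (adjusted p = 0.776, 0.947 and 0.756). Eif1ax was lower in all 3 groups (-0.35 ± 0.08, adjusted p = 0.0241, -0.30 ± 0.08, adjusted p = 0.0306 and -0.31 ± 0.09, adjusted p = 0.044, limma). Its values were 9.25, 9.34, 9.46, 9.47 and 9.62 in group 2 and 8.98, 8.99, 9.06, 9.16 and 9.19 in group 3. In groups 4 and 5 they were 9.02, 9.11, 9.15, 9.17 and 9.20 and 8.87, 9.07, 9.13, 9.16 and 9.33, and only group 5 overlapped with group 2. Its call in group 5 was lost without rat 752 of group 2 (log2 change -0.27, adjusted p = 0.103).

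Eif2ak4 encodes GCN2, the kinase that senses uncharged tRNA, and was lower in group 5 alone among the comparisons with group 2. It was at 6.87, 6.91, 7.04, 7.04 and 7.20 in group 5 and 7.21, 7.33, 7.38, 7.48 and 7.70 in group 2, so that the highest rat of group 5 was just below the lowest of group 2 (-0.41 ± 0.10, adjusted p = 0.0157, limma). In groups 3 and 4 it was at -0.03 and -0.12 (adjusted p = 0.92 and 0.555). Eif2ak3, or PERK, the kinase of endoplasmic reticulum stress, was higher in group 4 (0.51 ± 0.17, adjusted p = 0.0824, limma) and at 0.28 (adjusted p = 0.167) in group 5. The group 4 call was lost when any of 6 of the 10 rats was left out. Eif2ak2 and Eif2ak1 were at -0.26 and 0.02 in group 5, neither past the test. The eIF2B subunit gene Eif2b4 was lower in group 4 (-0.27, adjusted p = 0.0895) and at -0.18 in group 5.

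**Figure D4:**
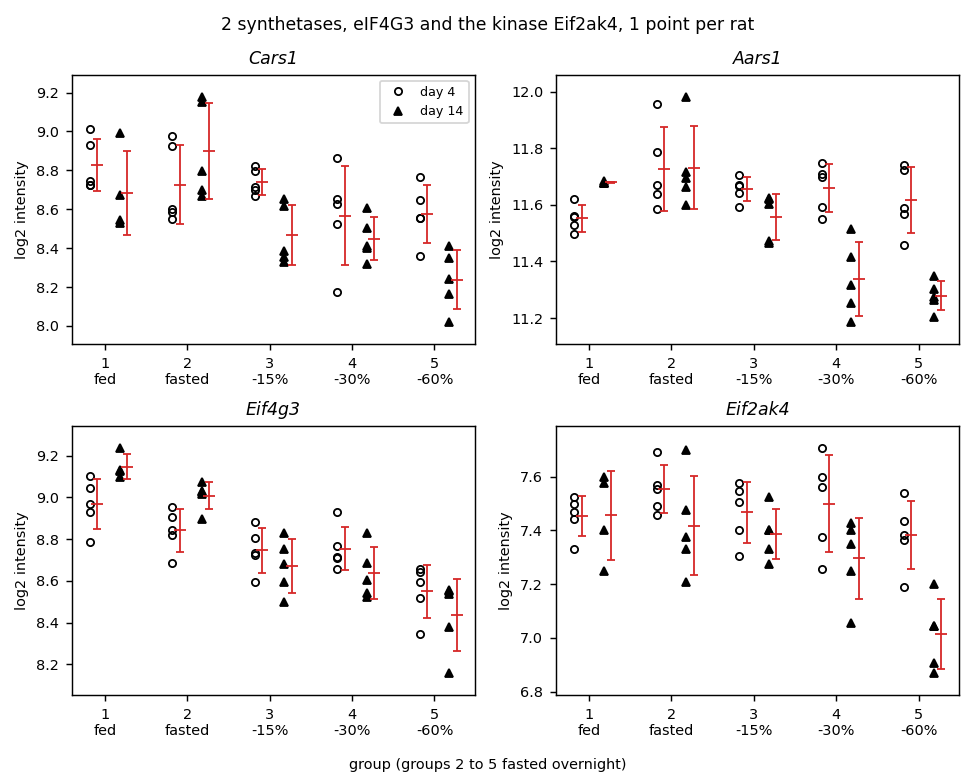
Log2 intensity of Cars1, Aars1, Eif4g3 and Eif2ak4 in each rat (circles, day 4; triangles, day 14) of the 5 diet groups, with the mean and SD in red. At day 14 all rats of group 5 lie below all rats of group 2 for these 4 genes, and the lowest means of Cars1 and Eif4g3 are those of group 5 (8.24 ± 0.15 and 8.44 ± 0.17, SD, n = 5).

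The 6 genes called higher in group 5 than in group 2 at day 14 were 7.41% of the 81, against 8.88% of all genes. All 6 belonged to the factors and their regulators, which make up 49 of the 81, and 3 of the 6 were in eIF3. LNN-MV called 1 gene higher there. Eif4a2, Eif3a, Eif3h and Eif4ebp3 were also lower in the fed rats, which were set against the same fasted rats of group 2. Eif4a2 was at 12.55, 12.58, 12.68, 12.71 and 12.75 in group 5 against 12.22, 12.31, 12.38, 12.45 and 12.51 in group 2, with no overlap (0.28 ± 0.07, adjusted p = 0.0231, limma), although its other probe set was at 0.11 (adjusted p = 0.641). Eif3a was at 11.13, 11.18, 11.19, 11.30 and 11.39 in group 5 against 10.83, 10.97, 10.98, 10.99 and 11.15, with a slight overlap (0.25 ± 0.08, adjusted p = 0.0462, limma), and its other probe set was at 0.21 (adjusted p = 0.522). Eif3h was at 11.34, 11.41, 11.48, 11.51 and 11.58 against 11.09, 11.21, 11.26, 11.27 and 11.30, without overlap (0.24 ± 0.07, adjusted p = 0.0354, limma), and its dim other probe set was at 0.43 (adjusted p = 0.00726). Eif3d, a subunit that can bind the cap itself, ran from 10.49 to 10.73 against 10.17 to 10.40 and had the largest change of the complex (0.33 ± 0.07, adjusted p = 0.0115, limma). Eif3j was at 0.24 and did not pass (adjusted p = 0.117). Eif3l, another subunit of the core, was lower in groups 3 and 4 (-0.20 and -0.23, adjusted p = 0.0869 and 0.0318) and at -0.13 in group 5, and its other probe set passed in group 4 (-0.23, adjusted p = 0.0462) but not in group 3 (-0.17, adjusted p = 0.23). Its values were 11.40, 11.42, 11.52, 11.54 and 11.55 in group 2, 11.17, 11.27, 11.28, 11.31 and 11.37 in group 3 and 11.18, 11.27, 11.27, 11.28 and 11.30 in group 4, and neither restricted group overlapped with group 2. Eif4a1 was lower in group 4 (11.93, 12.07, 12.08, 12.10 and 12.16 against 12.16, 12.27, 12.30, 12.34 and 12.34 in group 2, just without overlap, -0.21 ± 0.06, adjusted p = 0.0579, limma) and unlike it Eif4e3 was higher there (0.32, adjusted p = 0.0607), with its other probe set at 0.14 (adjusted p = 0.456). Eif4b was at -0.09, -0.11 and -0.01 in the 3 restricted groups, none past the test.

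Of the 3 4E-BP genes, Eif4ebp3 and Eif4ebp1 were called higher in group 5 at day 14. Eif4ebp3 at day 14 was at 11.27, 11.31, 11.35, 11.49 and 11.66 in group 3 and 11.91, 11.94, 12.09, 12.35 and 12.65 in group 4. In group 5 it was at 11.28, 12.68, 12.69, 13.47 and 13.62, so that 4 rats lay above all of group 2 and 1 lay below it. The changes were -0.31 (adjusted p = 0.222), 0.46 (adjusted p = 0.102) and 1.02 ± 0.36, adjusted p = 0.079 (limma). The group 5 call was lost when any of 8 of the 10 rats was left out, with log2 changes of 0.80 to 1.39 and an adjusted p of up to 0.174. Eif4ebp1 was higher in group 5 (0.24 ± 0.09, adjusted p = 0.0789, limma), a call lost without any of 7 of the 10 rats, and Eif4ebp2 was at 0.11 (adjusted p = 0.501).

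Without any 1 rat, 2 of the 5 calls in group 3 stayed, 5 of the 10 in group 4 and 8 of the 14 in group 5. Markers of other cells differed as well in group 5 at day 14. Of the erythroid markers 2 of 5 were lower, with a summed level of 10.34 to 11.80 against 12.86 to 13.39 in group 2 and Epb42 below the 20th percentile. Of the T and NK cell markers 5 of 13 were lower (10.19 to 10.50 against 10.68 to 10.91), with Cd3d, Cd8a and Klrd1 below that level. Stellate and fibroblast markers had 1 higher and 2 lower of 12 (11.41 to 12.20 against 11.86 to 12.55). In group 4 at day 14, 2 of the 5 erythroid markers were lower too (11.89 to 13.24). Their part in these results was not tested.

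The severe and mild restriction were then compared directly. At day 4, groups 5 and 3 differed in none of the 81 genes with limma, against 0.83% of all genes, and LNN-MV called 0. An unadjusted p under 0.05 was found for 12 members, without a count over all genes to set beside it. At day 14, 6 were higher in group 5 (7.41%, against 3.76% of all genes) and 2 lower (2.47%, against 5.79%). The lower ones were Eif2ak4 (-0.37 ± 0.08, adjusted p = 0.02, limma) and Aars1 (-0.28 ± 0.06, adjusted p = 0.0254, limma). Eif2ak4 was at 7.28, 7.33, 7.40, 7.40 and 7.52 in group 3, all above group 5, and Aars1 was separated in the same way. Higher were Eif4ebp3 (1.33 ± 0.35, adjusted p = 0.0484, limma), 3 subunit genes of eIF3, namely Eif3a (0.28), Eif3h (0.25) and Eif3d (0.24), the associated Eif3j (0.28) and Eif2a (0.25). All 11 eIF3 genes were above 0 in this comparison (median 0.126), although the share of all genes above 0 was not counted. The rats of group 5 are the same as in the comparison with group 2. Other probe sets of these genes were not tested singly between groups 5 and 3.

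The same diet was also compared between days, where the day is also the age of the rats. The labels name no batch, so any batch that went with the day cannot be told apart from it. With limma none of the 81 genes was called in group 1 (0% of all genes, 11 members at an unadjusted p under 0.05, 1 called by LNN-MV) or in group 2 (0.00703% of all genes, 4 members under 0.05, none by LNN-MV). The shares of all genes at that unadjusted p and by LNN-MV were not counted. In group 3, 4 were higher at day 14 (4.94%, against 8.93% of all genes) and 3 lower (3.7%, against 3.85%). In group 4, 3 were higher (3.7%, against 3.64%) and 1 lower (1.23%, against 1.84%). In group 5, 1 was higher (1.23%, against 3.9%) and 5 were lower (6.17%, against 2.81%).

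In group 5 the genes that were lower at day 14 than at day 4 were 4 cytosolic synthetases and GCN2: Cars1 (-0.34 ± 0.09, adjusted p = 0.0715), Aars1 (-0.34 ± 0.07, adjusted p = 0.0234), Tars1 (-0.29 ± 0.08, adjusted p = 0.0864), Nars1 (-0.24 ± 0.07, adjusted p = 0.0645) and Eif2ak4 (-0.37 ± 0.08, adjusted p = 0.0339, all limma). Eif4ebp2 was higher (0.32, adjusted p = 0.0645). Aars1 was at 11.46, 11.57, 11.59, 11.72 and 11.74 at day 4 and 11.21, 11.27, 11.28, 11.30 and 11.35 at day 14, with no overlap. Of the 19 cytosolic synthetases 18 were below 0 (median -0.08), but the share of all genes below 0 was not counted. The summed erythroid markers also differed between the days in group 5, from 12.67 to 13.39 at day 4 and from 10.34 to 11.80 at day 14, without overlap, and those of T and NK cells ran from 10.44 to 10.82 and from 10.19 to 10.50. Their part in these differences was not tested. Tars1 and Nars1 charge tRNAs with threonine and asparagine. In group 4 Aars1 was the single gene lower at day 14 (-0.32 ± 0.07, adjusted p = 0.043, limma), and Eif4ebp3 (0.90), Yars2 (0.29) and Eif1b (0.27) were higher. In group 3, Cars1 (-0.27 ± 0.08, adjusted p = 0.0547, limma), Eif1a (-0.28) and Eif1ax (-0.22) were lower, and Eif4g1 (0.31 ± 0.07, adjusted p = 0.0213, limma), the main scaffold of cap binding, was higher with Eif4ebp3 (0.37), Fars2 (0.25) and Eif2b1 (0.17). Where these genes have other probe sets, those were not tested singly between days.

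All 4 synthetases called lower in group 5 between the days had the C/EBP-ATF core in their promoter, a split that was made after these values were known and is given as a description. The 7 with the core had a median log2 change of -0.244 in group 5 (-0.339 to -0.08). The 10 without it had a median of -0.054 (-0.228 to 0.119), and none was called. The lowest of these, Lars1, narrowly missed the threshold (-0.228, limma, adjusted p = 0.102), and its values did not overlap between the days. Tars1 and Nars1, with the core, passed at adjusted p = 0.0864 and 0.0645 (limma), so the split by call depends on the threshold. Without each rat in turn, 2 to 8 of all the genes described here were called in this comparison. In group 3 the medians were -0.112 and -0.02, in group 4 0.018 and 0.038, in group 1 -0.063 and 0.024, and in group 2 0.012 and 0.067. The medians were farthest apart in group 5, and against group 2 of day 14 the medians of group 5 were -0.196 and -0.105.

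**Figure D5:**
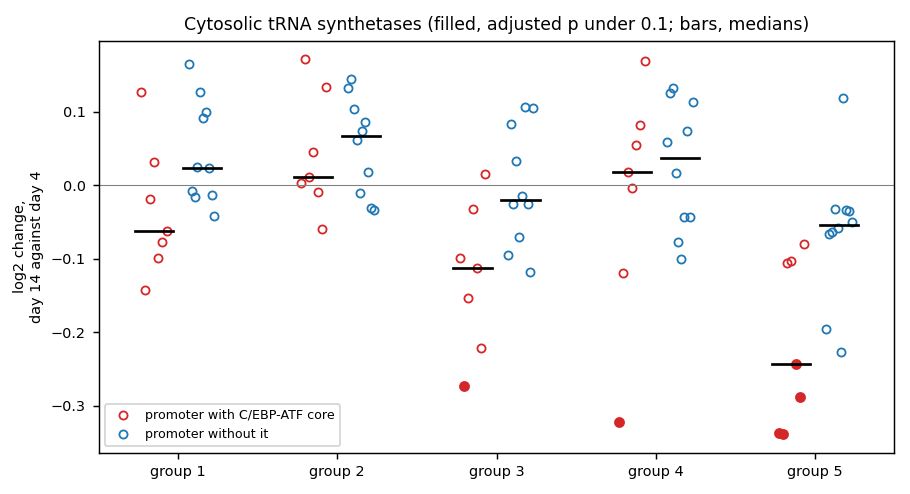
Log2 change from day 4 to day 14 of the 17 cytosolic synthetases with a promoter entry, by diet group, for the 7 with the C/EBP-ATF core (red) and the 10 without (blue), with filled points at an adjusted p under 0.1 and bars at the medians. In group 5 the bars lie at -0.244 and -0.054, and in groups 1 and 2 no point is filled.

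The difference between days in the effect of diet was tested as an interaction. With limma 1 of the 81 genes passed in group 5 as higher (1.23%, against 0.844% of all genes) and none as lower (1.2% of all genes). It was Eif4a2, at 0.45 ± 0.11 (adjusted p = 0.0717). Its change against group 2 was -0.16 at day 4 and 0.28 at day 14. It was at 12.29, 12.32, 12.33, 12.45 and 12.63 in group 5 at day 4, where 3 of 5 rats lay below all fasted rats of that day, while at day 14 all 5 lay above the fasted rats of day 14. The other probe set of the gene did not pass, at 0.20 (adjusted p = 0.64), and leaving out any of 11 of the 20 rats lost this call (adjusted p of up to 0.148). None passed in groups 1, 3 and 4, against 0%, 0.591% and 0.134% of all genes, with 3, 5 and 6 members at an unadjusted p under 0.05, and LNN-MV has no such test. Again the share of all genes at the unadjusted p was not counted.

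The neighbouring parts of the pathway were counted with the same test, beside the shares of all genes given above: 9.76% higher and 11.5% lower for the fed rats at day 4, 7.26% and 5.92% for those at day 14, and after 14 days 3.4% and 3.14% in group 3, 6.52% and 6.24% in group 4 and 8.88% and 10.9% in group 5. The list of cytosolic elongation factors, which extend the chain, held 8 genes, and some of them encode proteins that are not such factors. Of the 8, 4 were lower in group 1 at day 4 and 5 at day 14, among them Eef1d (-0.36 and -0.30) and Eef1b2 (-0.23 and -0.29). Eef1e1 (-0.39) and Eef2k (-0.30), which are not elongation factors themselves, were lower at day 14. In group 5 at day 14, 1 of the list was higher. Of the 4 termination and recycling genes, Etf1, which reads stop codons, was lower in group 1 on both days (-0.35 and -0.34). Of 13 poly(A)-binding proteins and eIF4 regulators, the fed rats had 2 higher and 3 lower at day 4 and 1 and 2 at day 14, and group 5 had 4 higher and 3 lower after 14 days. Mknk2, a kinase of eIF4E, was higher than in group 2 in fed and in restricted rats alike (1.30 and 1.04 in group 1, 1.02, 1.22 and 1.22 in groups 3, 4 and 5 at day 14). Pabpc4, a poly(A)-binding protein, was at -0.68 and -0.65 in fed rats and at 0.30 in group 5 after 14 days. The scanning helicase gene Dhx29 was at 0.29 in fed rats at day 4 and at -0.38 in group 5 after 14 days, and Pdcd4, an inhibitor of eIF4A, was at 0.37 in group 4 at that time.

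Of 12 genes of the synthetase scaffold and of tRNA quality, 3 and 4 were lower in group 1 on the 2 days, among them Xpot, the tRNA exporter (-0.40 and -0.44), and Prorsd1 (-0.50 and -0.35), and group 5 had 2 each way after 14 days, with Dtd2 at -0.36. Of 12 mitochondrial translation factors, the fed rats had 1 higher and 2 lower at day 4, and group 5 had 1 each way after 14 days, with the elongation factor genes Tufm at 0.19 in the former and Gfm1 at -0.30 in the latter, and the release factor gene Mtrf1l at -0.38 and 0.34 in these comparisons. Mtfmt, which formylates the initiator tRNA, was at -0.20 in the fed rats at day 4. Of 26 genes of the ATF4 pathway, the fed rats had 8 higher and 4 lower at day 4 and 3 and 2 at day 14. After 14 days the numbers higher and lower were 4 and 4 in group 3, 7 and 3 in group 4, and 6 and 5 in group 5. Atf5, a transcription factor made in the same response, was at -1.05, -1.50 and -1.91 in groups 3, 4 and 5 at day 14, the hormone gene Fgf21 at -0.97, -0.89 and -1.58, and the stress gene Nupr1 at 0.87, 1.60 and 2.17. Of 18 genes of the mTOR pathway, the fed rats had 2 higher and 6 lower at day 4 and 3 each way at day 14, and group 5 had 7 higher and none lower after 14 days. These included the mTOR inhibitors Ddit4 (1.65), Sesn1 (1.18) and Deptor (0.53), and the insulin receptor substrate Irs2 (1.27), which was at -0.71 and -0.97 in group 1. All named values passed limma at an adjusted p under 0.1.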

How the data were processed

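Total RNA of liver from 49 rats was hybridised to Affymetrix rat genome arrays, 1 array per rat. The authors checked the scans in Expression Console and normalised them by RMA in the affy package (version 1.38.1) under R 3.0.1, and deposited the result as 1 intensity per probe set and array, on a linear scale in whole numbers. Quantile normalisation makes all levels relative to the whole array. For the present work the intensities were taken as log2. Of 31042 probe sets, 20826 had 1 gene symbol, 436 several and 9780 none. Only those with 1 symbol were used, and the brightest on average stood for its gene, which gave 14217 genes. Eif3e, Eif5 and Mars2 were measured only by probe sets that carry several gene records and were left out. Of the 81 genes, 33 had more than 1 probe set.

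Each comparison was fitted on its own groups with limma 3.58.1 (R 4.3.3; lmFit and eBayes), after a test on simulated data, with Benjamini-Hochberg adjustment over all genes at 0.1. The study's methods used the model LNN-MV at the same level, and it was rewritten here as an alternative. Other alternatives were 1 fit of all groups, no dim genes, the mean of all probe sets, the other probe sets, a further quantile normalisation and leaving out each rat. Tables and figures were made in Python 3.11.15 with numpy 2.4.6, pandas 2.3.3 and matplotlib 3.10.9. Promoter sequences were those of RefSeq on GRCr8.

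Genes were named where they were among the 10 largest changes called in a comparison with group 2, the 4 largest of their role, a kinase or 4E-BP, called in an interaction or among the 4 largest called of a pathway list. Genes were also named in the comparisons of days, of groups 5 and 3 and of promoters, and others were named after their values were seen. The members and lists were chosen with earlier results of these data known.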

Additional observations from a re-analysis of the deposited data

Results flagged for a closer look

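Dixon's test was run on the 11 genes called in 3 or more comparisons, in 110 groups of rats, and 4 groups held a rat apart from the others, where chance gives about 1 in 20. Cars2 was at 7.19 in rat 739 of group 4 at day 4, below the 7.484 to 7.562 of the other 4 rats. In group 5 at day 14 it was at 7.615 in rat 766, above the 7.267 to 7.331 of the others. In group 2 at day 4, Eif3a was at 10.948 in rat 726 (others 11.095 to 11.154) and Eif3h at 11.127 in rat 728 (others 11.206 to 11.234). The change of Eif4a2 in group 5 differed between the days by 0.4462 on the log2 scale (limma interaction, adjusted p = 0.0717).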

How the results depend on the processing

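Counts of called genes among the 81 moved as follows, and the cause was not tested. The share of all genes called was not counted for any alternative, leaving out each rat included. Whether all genes moved in the same way is therefore not known. With LNN-MV, 3 genes were higher in the fed rats at day 4. At day 14 it called 1 higher gene each in groups 4 and 5, 3 lower in group 3 and 5 lower in group 4, and at day 4 1 lower in group 5. With 1 fit of all groups, the genes lower at day 14 were 28 in group 1, 13 in group 4 and 15 in group 5, and those lower at day 4 were 6 in group 4. In group 5 at day 4, 1 gene was higher with 1 fit, the mean of probe sets, quantile normalisation or no dim genes, and 1 was lower with the mean of probe sets. In group 4 at day 14, 1 was higher with the mean of probe sets. Groups 5 and 3 at day 14 differed in 14 genes with 1 fit and 5 with LNN-MV. Between days, LNN-MV called 1, 4, 2 and 3 genes in groups 1, 3, 4 and 5, quantile normalisation 1 in group 1, no dim genes 11 in group 3 and 1 fit 15 in group 5. The group 5 interaction had 6 genes with 1 fit and 2 with quantile normalisation. Reversed by the other probe set were Eif2ak1 (0.0263) and Eif3h (0.0043) for the fed rats at day 14, Iars1 (0.1029) for those at day 4, and Eif4g3 (0.0991) for group 5 at day 4, of which the other sets of Eif3h and Eif4g3 were below the 20th percentile of all genes. Of the named changes, 1 fit kept 81 past the test and lost 1, quantile normalisation kept 80 and lost 2, and the other probe sets kept 21 and lost 22 without turning them.

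Without each rat in turn, lower genes in group 1 numbered 21 to 25 at day 4 and 9 to 21 at day 14 (9 without rat 746, 750 or 752), and higher ones 2 to 6 (2 without 721 or 729, 3 without 730) and 0 to 2 (0 without 747 or 748). At day 4, group 4 had 1 to 3 lower genes and group 5 had 0 to 2 (0 without 726, 730 or 744), with 0 to 1 higher in group 5. At day 14, group 3 had 2 to 7 lower genes (2 without 752 or 757), group 4 had 5 to 9 (5 without 751 or 765) and group 5 had 6 to 11, and higher ones 0 to 3 in group 4 (0 without 753 or 765) and 3 to 7 in group 5 (3 without 755 or 768). Groups 5 and 3 differed in 0 to 1 gene at day 4 (1 without 741) and 3 to 10 at day 14 (3 without 768, 4 without 756 or 770). Between days the counts were 0 to 1 in group 1 (1 without 724), 1 to 8 in group 3 (1 without 758), 0 to 4 in group 4 (0 without 736) and 2 to 8 in group 5 (2 without 742, 743 or 768), and the group 5 interaction had 0 to 4 (4 without 728). No paired analysis was possible because the labels number each rat and groups share no number.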

Other observations

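Some probe sets that belong to these gene families carry several gene records and entered no comparison. The set for Mars2, the mitochondrial methionine enzyme, had mean log2 intensities of 6.92, 7.51, 7.71, 7.88 and 7.98 in groups 1 to 5 at day 4 and of 7.04, 7.76, 8.09, 8.19 and 8.50 at day 14. The set shared by Eif3e and its copy was at 10.98 in fed and 11.51 in fasted rats of day 4, and at 10.97 and 11.45 in those of day 14. Of the 3 sets shared by Eif5 and its pseudogene, the first was at 10.82 in fed and 11.38 in fasted rats of day 4 and at 11.00 and 11.27 in those of day 14. The second was at 11.19 and 11.59, then 11.23 and 11.55, and the third at 11.67 and 11.95, then 11.24 and 11.80.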
